A study of Rattus norvegicus with 2 samples.

Results

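The genes of the transcription factor AP-1 were followed here between 2 RNA-seq libraries of rat retina. Their members were taken by gene symbol, as Fos, Fosb, Fosl1, Fosl2, Jun, Junb, Jund, Atf3, Batf and Maff, and all 10 were found among the 32662 genes of the deposited expression table. The retinas came from Long-Evans rats 2 months old, described in the study's methods as female. CTRL had a sham procedure, and IR12 had ischemia-reperfusion injury and was collected 12 hours after reperfusion. Each condition has 1 rRNA-depleted library, so no difference below has a replicate check, and animal and injury cannot be told apart.

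AP-1 is a dimer of basic leucine zipper proteins. A Fos protein pairs with a Jun protein, and the pair binds the letters TGACTCA, also called the TPA response element, while dimers that hold an ATF protein also bind TGACGTCA, the cAMP response element. Several of these genes are immediate early genes, which are transcribed within minutes of a stimulus without new protein synthesis, and in retina Atf3 and Jun are known as genes that injured ganglion cells express.

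Gene expression was measured as FPKM, reads scaled to transcript length and to the library's total, which allows levels of genes to be set side by side. A change is the log2 ratio of (FPKM + 1), IR12 over CTRL, which understates the change of low genes. A gene was read as higher or lower at a log2 ratio of at least 1 in size, a 2-fold change, if its FPKM reached 1 in either library, a filter that 13599 genes passed. Among these, 892 genes (6.56%) were higher by 2-fold or more in IR12 and 832 (6.12%) were lower by as much. Of those calls 51.7% were higher, and with both libraries rescaled to the same sum of FPKM (TPM scale) 86.6% were. Of the 13492 genes that passed the filter on the TPM scale, 20.96% were higher and 3.23% lower. That scale moved the median log2 ratio of genes that reached FPKM 1 in both libraries from 0.03 to 0.60. The median log2 ratio of all 13599 genes was 0.02, and Gapdh, the reference gene of the study's RT-qPCR, stood at FPKM 716 in CTRL and 690.1 in the IR12 library.

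Of the 10 AP-1 genes, 5 reached a 2-fold higher level in IR12 (Fos, Fosl1, Junb, Atf3 and Maff) and 0 were at least 2-fold lower, beside the 6.56% and 6.12% of all genes. The FPKM was at least 1 in either library for 7 members, and 3 of them (Fosl1, Junb and Maff) reached it in IR12 alone, so that their direction follows from the filter. Fosb, Fosl2 and Batf were under FPKM 1 in both libraries. Over all 10 members the median log2 ratio was 1.11. Centring on the median gene shifted each log2 ratio by 0.03, too little to change the call of any member. Jun joined the 5 genes on the TPM scale, where 20.96% of all genes were higher. In CTRL Fos, Jun and Jund had FPKM between 6.99 and 7.40, Atf3 followed, and the other 6 members were under 1. In IR12 the order was Atf3, Fosl1, Fos, Junb, Jun, Maff and Jund, with Fosl2, Fosb and Batf under 1.

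**Figure D1:**
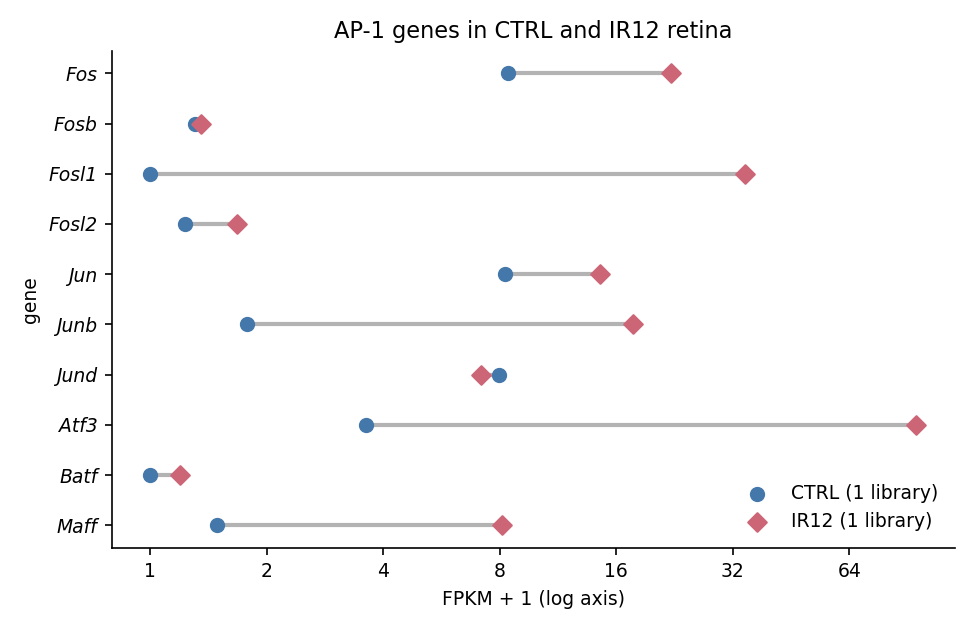
FPKM + 1 of the 10 AP-1 genes on a log axis, with circles for the CTRL library and diamonds for the IR12 library, joined by a line for each gene. Atf3, Fosl1, Junb and Maff have the longest lines, and Jund is the member whose diamond lies left of its circle, an order that turns on the TPM scale.

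**Figure D2:**
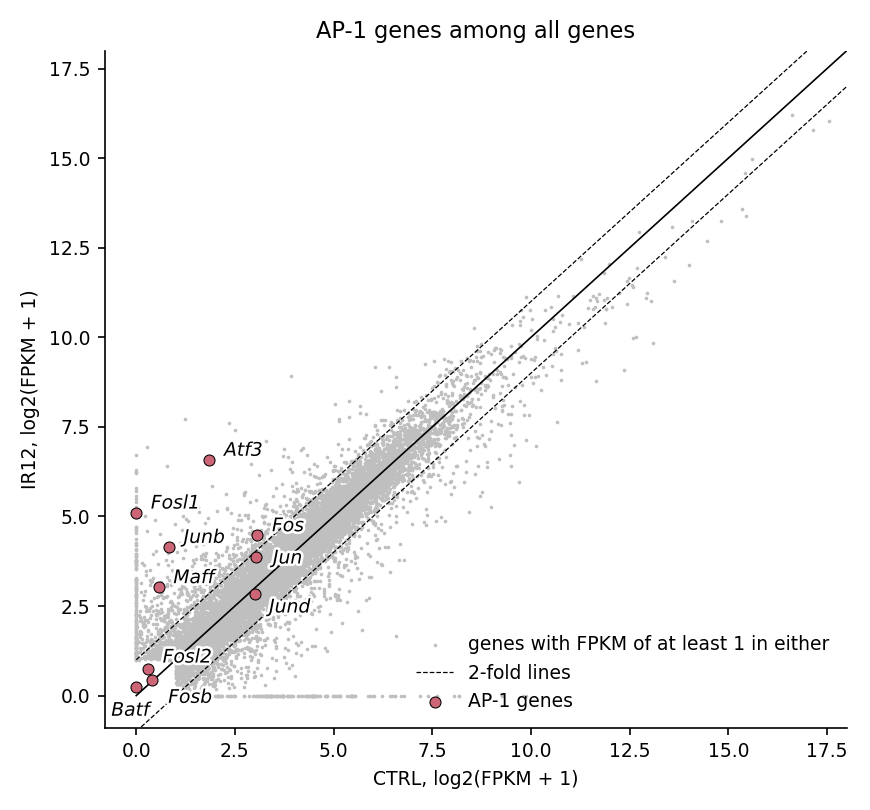
Log2(FPKM + 1) in CTRL against IR12 for the 13599 genes that passed the filter in either library, with the 10 AP-1 genes as large points. The solid line marks equal values and the dashed lines a 2-fold change, and 5 AP-1 genes lie above the upper dashed line.

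The stretch before the transcription start is shown for 4 members, Fosl1, Junb and Maff because they had the largest log2 ratios among members with a promoter entry, and Jund because its FPKM differed least among the members that passed the filter. The sequences are the 250 bases upstream of the start in the RefSeq promoter table, on the strand of the gene. They are on build GRCr8, whereas the loci given with the expression values are on rn6. The TGACGTCA letters are in capitals.
Fosl1: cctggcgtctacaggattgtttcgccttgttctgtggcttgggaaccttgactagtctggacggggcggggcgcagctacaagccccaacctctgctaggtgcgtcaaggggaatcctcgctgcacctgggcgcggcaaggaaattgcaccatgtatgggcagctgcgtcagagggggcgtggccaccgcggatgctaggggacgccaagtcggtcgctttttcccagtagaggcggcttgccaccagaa
Junb: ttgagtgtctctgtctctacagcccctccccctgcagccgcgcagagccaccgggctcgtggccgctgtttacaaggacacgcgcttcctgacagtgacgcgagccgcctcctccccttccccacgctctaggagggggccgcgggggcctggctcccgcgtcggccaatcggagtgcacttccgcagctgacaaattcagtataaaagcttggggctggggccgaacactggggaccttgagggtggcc
Maff: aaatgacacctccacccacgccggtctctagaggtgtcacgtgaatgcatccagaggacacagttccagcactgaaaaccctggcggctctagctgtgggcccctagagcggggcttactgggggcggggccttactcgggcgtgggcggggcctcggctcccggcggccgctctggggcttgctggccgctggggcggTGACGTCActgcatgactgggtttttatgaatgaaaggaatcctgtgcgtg
Jund: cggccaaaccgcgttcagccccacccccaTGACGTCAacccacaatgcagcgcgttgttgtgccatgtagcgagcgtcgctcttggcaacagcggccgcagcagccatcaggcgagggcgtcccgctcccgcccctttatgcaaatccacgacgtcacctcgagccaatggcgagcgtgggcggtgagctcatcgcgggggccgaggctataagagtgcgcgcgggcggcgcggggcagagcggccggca
These stretches lie at chr1:212183635-212183884 on the plus strand for Fosl1, chr19:40080876-40081125 on the plus strand for Junb, chr7:112792537-112792786 on the plus strand for Maff and chr16:18769772-18770021 on the minus strand for Jund.

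The table held entries for 7 members, and the other 3 were Fos, Jun and Atf3. Both strands of each 250-base stretch were searched for TGACTCA, whose reverse complement is TGAGTCA, and for TGACGTCA, which is its own reverse complement. Neither set of letters contains the other. TGACGTCA was found in 2 of the 7 stretches, beginning 221 bases before the start in Jund and 51 bases before it in Maff. Among all 33469 promoter stretches of this length 1.59% held it. TGACTCA was found in 0 of the 7, beside 4.05% of all stretches. The share of G and C was 62.0% in Fosl1, 66.0% in Junb, 63.6% in Maff and 68.4% in Jund, against a median of 51.2% over all stretches. Maff, which was higher in IR12, and Jund, whose FPKM was near equal in both libraries, shared these letters.

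Among the Fos family, whose proteins need a Jun partner to bind DNA, Fosl1 differed most. Fosl1 (ENSRNOG00000020552) encodes Fra-1, a Fos protein without the strong activation domain of Fos, and lies on rn6 at chromosome 1, 220826560 to 220835066. Its listed FPKM was 0 in CTRL, and it was 33.4 in IR12, with rank 15 of the 13599 genes by log2 ratio. No fold is given against a listed 0, and all 37 mitochondrial genes of the table are also listed at 0 in both libraries, so that such a value does not show a silent gene. In IR12 its FPKM was above that of 72.5% of the genes that reached FPKM 1.

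Fos (ENSRNOG00000008015), the founding member and an immediate early gene, lies on chromosome 6, 109300433 to 109303299. Its FPKM was 7.40 in CTRL and 21.2 in the IR12 library, giving a ratio of 2.86 and a log2 ratio of 1.40. Fos was thus at nearly the same level as Jun and Jund in CTRL and lay below Atf3 and Fosl1 in IR12. It ranked 501 among all genes tested by log2 ratio.

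Fosb (chromosome 1, 80214494 to 80221710), an immediate early gene whose short splice form ΔFosB accumulates in neurons, stood at FPKM 0.307 in CTRL and 0.354 in the IR12 library. Fosl2 (chromosome 6, 25598936 to 25616995), which encodes Fra-2, had 0.232 in CTRL and 0.679 in IR12. Both stayed under the filter, and the log2 ratio of Fosl2 was 0.45 with a pseudocount of 1 and 1.23 with a pseudocount of 0.1. The Fos family therefore held 1 gene that passed the filter in IR12 alone, 1 that passed in both libraries and was higher in IR12, and 2 that stayed under the filter in both.

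Jun proteins pair with Fos, ATF and each other. The 3 Jun genes have no introns, so the listed locus is the transcript, and the reads behind their FPKM could be recovered, a step chosen after seeing the data. Low values of loci of 600 to 1500 bases moved in steps of single reads, which gave starting values for the scaling totals. A further fit took in longer loci and kept those near whole reads, 436 in CTRL and 615 in IR12. It gave scaling totals of 15408998 reads in CTRL and 26317031 in IR12, a relative depth of 1.71. In this fit 202 bases were taken from each length. Of values worth under 20 reads at loci of 600 to 1500 bases, 71.0% in CTRL and 74.1% in IR12 came out whole within 0.05. Values of genes with introns need not come out whole. Without the Jun genes in that fit, all 6 of their values came out whole within the same tolerance. Both totals are below the numbers of sequenced reads that the study states, which also differ less between the libraries. Whether the totals are mapped reads or were rescaled is not stated in the sources used here. Intervals are 95% exact Poisson intervals, which cover counting error only and not the spread between animals.

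Junb (ENSRNOG00000042838, chromosome 19, 26092974 to 26094756), a weaker activator than Jun and an antagonist of it at some targets, had an FPKM of 0.780 in CTRL from 19 reads (interval 11.4 to 29.7). In IR12 it had 16.7 from 695 reads (interval 644 to 749). Per 1000000 reads of the scaling total its reads were 21.4 times as high in IR12, with an exact interval of 13.6 to 35.8. On the TPM scale this ratio was 33.6 with an interval of 21.3 to 56.1, computed after seeing the data. The log2 ratio was 3.31 on the (FPKM + 1) scale and 4.42 from the reads, and Junb ranked 77 among all genes tested. Junb therefore went from the lowest Jun gene in CTRL to the highest in IR12.

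Jun (ENSRNOG00000026293, chromosome 5, 114011189 to 114014277), the target of the JNK kinases, had an FPKM of 7.24 in CTRL from 322 reads (interval 288 to 359). Its FPKM in IR12 was 13.5 from 1029 reads (interval 967 to 1094). The ratio of scaled reads was 1.87 (interval 1.65 to 2.13) and the log2 ratio 0.82, under the 2-fold limit. On the TPM scale the log2 ratio was 1.39, or 0.79 after the shift of the median gene on that scale was taken off. Jun was thus higher in IR12 by more than counting error, and its side of the limit depends on the scale.

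Jund (ENSRNOG00000019568, chromosome 16, 20485029 to 20486707), which is known for steady expression in resting cells, had an FPKM of 6.99 in CTRL from 159 reads (interval 135 to 186). In IR12 its FPKM was 6.18 from 240 reads (interval 211 to 272). The ratio of scaled reads was 0.884, with an interval of 0.720 to 1.09 that includes 1. On this scale a difference was not detectable at this depth. Its log2 ratio of -0.15 turned to 0.40 on the TPM scale, where the ratio of reads was 1.38 with an interval of 1.13 to 1.70, above 1, computed after seeing the data. Relative to the median gene of that scale its log2 ratio was -0.20. Whether Jund differed beyond counting error thus depends on the scale.

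In CTRL the FPKM intervals of Jun (6.47 to 8.07) and Jund (5.94 to 8.16) overlapped, so the order of these 2 genes is not resolved. In IR12 the intervals of Junb (15.5 to 18.0), Jun (12.7 to 14.4) and Jund (5.42 to 7.01) were separate.

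**Figure D3:**
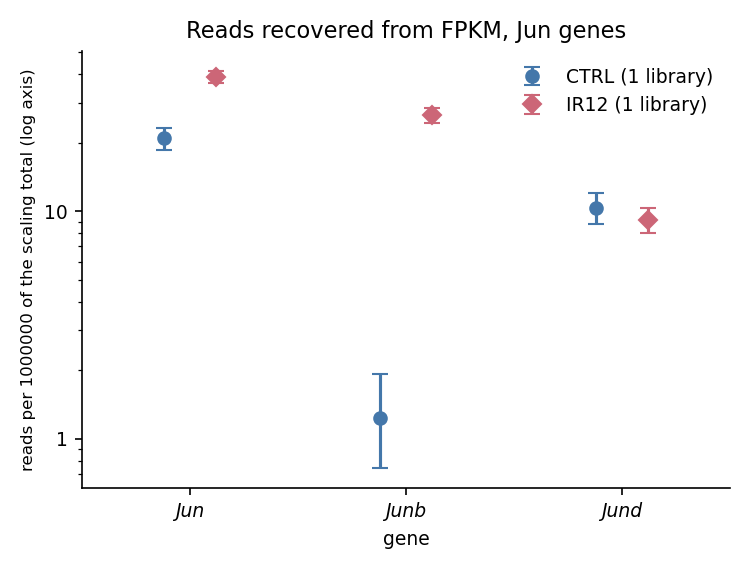
Reads per 1000000 of the scaling total for Jun, Junb and Jund on a log axis, with circles for the CTRL library, diamonds for the IR12 library and bars for 95% exact Poisson intervals. The intervals of the libraries are separate for Jun and Junb and overlap for Jund.

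Atf3 (ENSRNOG00000003745, chromosome 13, 109817728 to 109849632) encodes a stress-induced factor that pairs with Jun proteins and represses as a homodimer. Its FPKM was 2.62 in CTRL and 94.5 in the IR12 library, giving a ratio of 36.1 and a log2 ratio of 4.72. It ranked 23 of all genes tested, and its log2 ratio lay between 4.62 and 5.22 over the pseudocounts and scales tried. Atf3 was measured above the filter in both libraries, unlike Fosl1, Junb and Maff. Its level rose from above 13.5% of the genes that reached FPKM 1 in CTRL to above 91.7% of those in IR12.

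Maff (ENSRNOG00000012886, chromosome 7, 120580743 to 120592095) encodes a small Maf protein, which has no activation domain and pairs with NRF and Bach factors. Its FPKM was 0.485 in CTRL and 7.13 in the IR12 library, giving a log2 ratio of 2.45, at rank 170. Batf (ENSRNOG00000008588, chromosome 6, 109562587 to 109584545), an AP-1 factor of lymphocytes and dendritic cells that pairs with Jun, had a listed value of 0 in CTRL and 0.190 in IR12. With a pseudocount of 0.1 the log2 ratio was 3.63 for Maff and 1.54 for Batf, which stayed under the filter. In FPKM Maff was thus low in CTRL and above Jund in IR12, while Batf stayed near 0.

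The summed FPKM of the 10 genes was 26.0 in CTRL and 194 in IR12, a ratio of 7.44 that takes the listed 0 of Fosl1 as it stands. The ratio was 11.7 on the TPM scale and 4.24 without Atf3, both chosen after seeing the data. In CTRL the Jun family made up 57.6% of this sum, the Fos family 30.5%, Atf3 10.1% and Maff 1.86%. In IR12 Atf3 made up 48.7%, the Fos family 28.7%, the Jun family 18.8% and Maff 3.68%. Batf was 0.0979% of the sum in IR12. The share of the Fos family was nearly the same in both libraries with Atf3 in the sum, and 33.9% and 56.0% without it, a choice made after seeing the data. Fos made up 28.4% of the sum in CTRL and 10.9% in IR12, and Fosl1 made up 17.2% in IR12. These are shares of RNA and not of protein or of dimers, and the scale between libraries does not enter them.

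**Figure D4:**
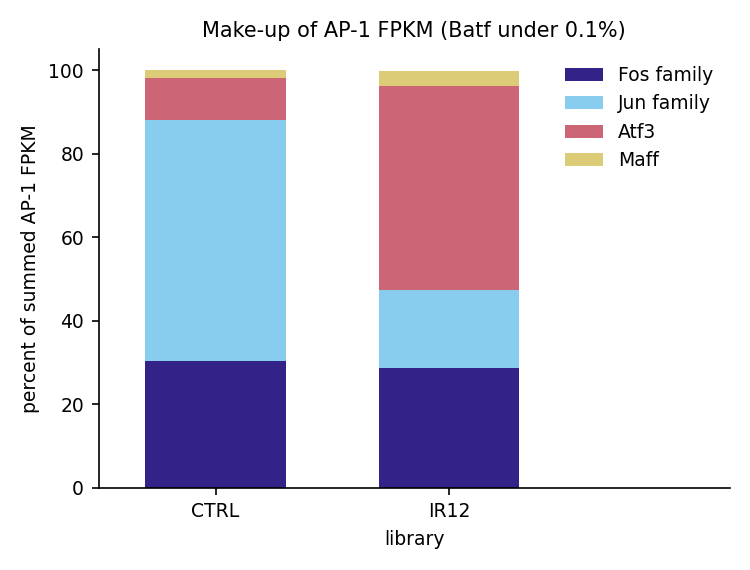
Percent of the summed FPKM of the 10 AP-1 genes held by the Fos family, the Jun family, Atf3 and Maff in the CTRL and IR12 libraries. The Jun family is the largest block in CTRL at 57.6% and Atf3 is the largest in IR12 at 48.7%.

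The members lie on 7 chromosomes, and no other listed locus is within 1000 bases of any of them. Fos and Batf lie 259 kb apart on chromosome 6 with Jdp2, a repressor that pairs with Jun, between them. Jdp2 stood at FPKM 2.18 in CTRL and 3.22 in the IR12 library. Batf3 lies 92.9 kb from Atf3 on chromosome 13 and had 0 and 0.769. These relatives near Fos and Atf3 were not higher by 2-fold, and Batf3 was under FPKM 1 in both libraries. Within 250 kb of the 5 higher members 71 other genes passed the filter, and 3 of these (4.23%) were at least 2-fold higher and 2 lower, beside 6.56% and 6.12% of all genes. Around all 10 members 121 passed, with 8 higher and 4 lower. The share higher, 6.61%, was near the 6.56% of all genes. The 3 higher ones were Efemp2 and Drap1 near Fosl1 and AC125873.1 near Atf3, named after their values were seen.

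The other AP-1 and related basic leucine zipper factors were followed as a list of 31 genes, with C/EBP genes other than Ddit3 left out. Of these, 25 passed the filter, 2 were higher by 2-fold or more in IR12 and 1 was lower, shares near the 6.56% and 6.12% of all genes. Atf5, a stress-induced ATF factor, stood at FPKM 1.65 in CTRL and 11.2 in the IR12 library, and Nfe2l2, which encodes the partner of small Maf proteins in the antioxidant response, had 18.5 and 52.3. Maf, a large Maf factor and the lower gene, had 2.90 and 0.654 and passed in CTRL alone, so that its direction follows from the filter. Its call was lost on the TPM scale and under an FPKM minimum of 5. Mafk, the small Maf protein nearest to the limit, had 1.36 and 3.66. Over the 29 related genes not listed at 0 in both libraries the median log2 ratio was 0.26. Most relatives of AP-1 thus differed by less than 2-fold, although 8 of them were higher by as much on the TPM scale, beside 20.96% of all genes there.

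The kinase cascades that act on Fos and Jun, those of JNK, p38 and ERK, were followed as 31 genes, 30 of them found, and Map3k1 was not analysed here. The list holds kinases and the JNK scaffold genes Mapk8ip1, Mapk8ip2 and Mapk8ip3. Of the 28 that passed the filter, 3 of them in IR12 alone, 5 were at least 2-fold higher and 0 lower, beside 6.56% and 6.12% of all genes. Among the higher genes Map3k6 and Map3k8 passed in IR12 alone, so that their direction follows from the filter. The higher genes were 8 on the TPM scale, beside 20.96% of all genes, and 3 with an FPKM minimum of 5, beside 6.37%. Mapkapk3, a kinase below p38, stood at FPKM 2.37 in CTRL and 13.8 in the IR12 library. Map3k6 had 0.235 and 3.11, Zak 8.87 and 22.2, and Map3k8 0.314 and 1.95, and these 3 genes encode kinases at the top of the cascades. The other gene was Mapk14, which encodes p38 alpha, with 35.4 and 80.6, named after its values were seen. Over these 28 genes the median log2 ratio was 0.14. The genes past the limit did not include Mapk8, Mapk9 or Mapk10, which encode the JNK kinases, with log2 ratios of 0.01, 0.23 and -0.57, also named after their values were seen.

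Srf and the ternary complex factors bind the serum response element of Fos. Of 6 listed genes 5 were found and passed the filter, and Mrtfb was not analysed here. Elk3 stood at FPKM 1.40 in CTRL and 4.11 in the IR12 library and was the 1 gene at least 2-fold higher, beside 6.56% of all genes, a call lost with an FPKM minimum of 5. Srf had 5.22 and 9.92, Elk4 19.9 and 27.7, Elk1 14.9 and 12.4, and Mkl1, a coactivator of Srf, 1.58 and 1.20. The log2 ratios of the other 4 lay between -0.24 and 0.81, and 3 of the 5 genes were higher by 2-fold on the TPM scale, beside 20.96% of all genes.

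Of 17 genes for turnover and brakes of AP-1, which encode Jun ubiquitin ligases, a deubiquitinase (Usp28), a COP9 signalosome subunit that binds Jun (Cops5), MAP kinase phosphatases and proteins that bind AU-rich RNA such as that of Fos, 16 passed the filter. Of these, 3 were at least 2-fold higher and 1 was lower, beside 6.56% and 6.12% of all genes. Dusp6, an ERK phosphatase, stood at FPKM 3.94 in CTRL and 36.8 in the IR12 library, and Dusp5, a nuclear ERK phosphatase, had 4.51 and 14.3. Zfp36, which encodes tristetraprolin and speeds the decay of AU-rich mRNA, had 1.23 and 6.14, while Dusp4, another nuclear phosphatase, had 15.4 and 6.52. On the TPM scale 8 genes of the list were higher and 0 lower, beside 20.96% and 3.23% of all genes, so the call of Dusp4 was lost. Over these 16 genes the median log2 ratio was 0.33.

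Of 36 textbook AP-1 target genes 28 passed the filter, 11 of them in IR12 alone, and 20 were higher by 2-fold or more in IR12 and 0 lower, beside 6.56% and 6.12% of all genes. Of the 20 higher genes 10 passed in IR12 alone, so that their direction follows from the filter. Over the 34 target genes not listed at 0 in both libraries the median log2 ratio was 1.47. Ccl2, a chemokine that attracts monocytes, stood at FPKM 0.205 in CTRL and 121 in the IR12 library. Mmp3, which encodes stromelysin, had a listed value of 0 in CTRL and 74.2 in IR12, and Hmox1, which encodes heme oxygenase, had 0.714 and 84.0. Timp1, an inhibitor of metalloproteinases, had 4.71 and 168.7. This list was chosen with earlier results of these data known, so its share is not a measure of enrichment of AP-1 targets. Many of these genes also answer to other factors, and binding of AP-1 was not measured.

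Of 20 other immediate early genes 19 were found, and Ier2 was not analysed here. Of the 13 that passed the filter, 3 of them in IR12 alone, 5 were higher by 2-fold or more in IR12 and 1 lower, beside 6.56% and 6.12% of all genes. The 3 that passed in IR12 alone were all among the higher genes, so that their direction follows from the filter. With an FPKM minimum of 5 the higher genes were 3, beside 6.37% of all genes. Myc, a growth regulator, stood at FPKM 0.0911 in CTRL and 7.79 in the IR12 library, and Npas4, a factor induced by neuronal activity, had 0.460 and 4.12. Ier3 had 8.20 and 30.5, and Klf6, a zinc finger factor, had 8.50 and 27.5. The others past the limit were Cyr61, with 0.947 and 3.90, and Ctgf, the lower gene, with 14.8 and 4.57, both named after their values were seen, and the call of Ctgf was lost on the TPM scale. Over all 19 genes the median log2 ratio was 0.13.

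**Figure D5:**
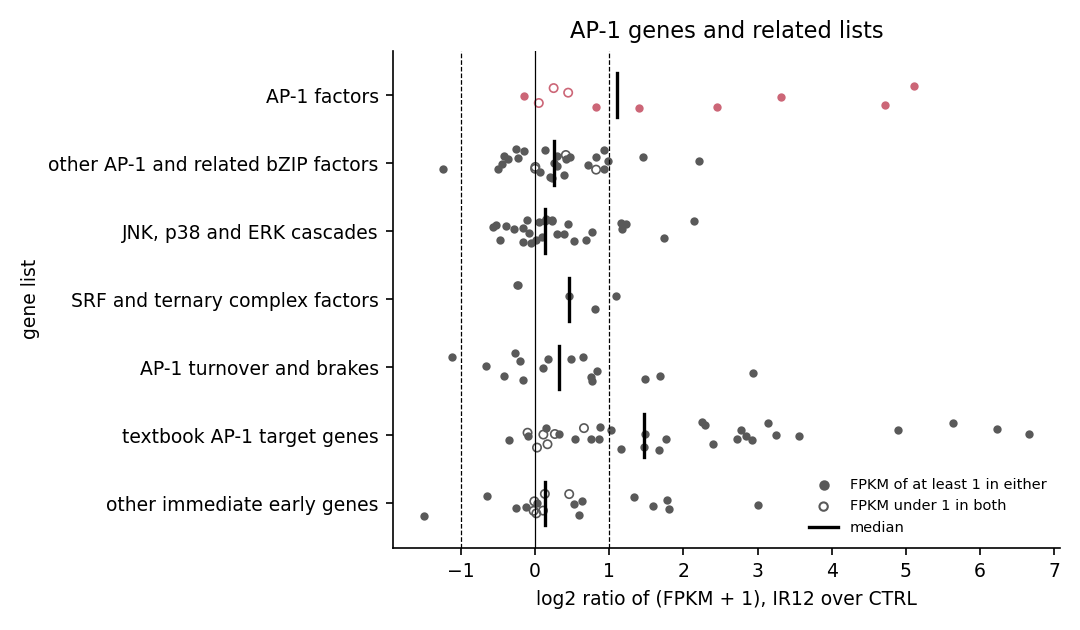
Log2 ratio of (FPKM + 1), IR12 over CTRL, for the AP-1 genes and 6 related lists, 1 point per gene not listed at 0 in both libraries. Filled points have an FPKM of at least 1 in either library, open points do not, dashed lines mark a 2-fold change, and black bars mark medians of 1.11 for the AP-1 genes and 1.47 for the target genes.

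By level in the 2 libraries, the genes nearest to Atf3 in log2(FPKM + 1) were Kif11, at FPKM 2.79 in CTRL and 56.4 in the IR12 library, Slc26a8, with 3.85 and 48.3, and Slc25a30, with 6.47 and 87.2. Those nearest to Fosl1 were AC135741.1, Ccl12 and SNORD113, each listed at 0 in CTRL, with 31.1, 30.7 and 30.5 in IR12. Distances were 0.74 to 1.05 for Atf3 and 0.10 to 0.13 for Fosl1. Since Fosl1 and its nearest genes all share the listed 0 in CTRL, their distances come from IR12 alone. The distances of the 2 members are therefore not comparable.

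Cell type markers also differed between the libraries, in directions that varied from list to list. The 10 rod markers, which define the labelled tissue, had a summed FPKM of 31954 in CTRL and 29478 in IR12, with Gngt1 the most abundant at 12096 and 8644. On the TPM scale 1 of the 10 was below its CTRL value and 1 was at least 2-fold higher, beside 20.96% of all genes. The lower rod sum thus depends on the scale. Of 18 leukocyte markers 14 passed the filter, 7 of them in IR12 alone, and 8 were higher by 2-fold or more in IR12, 6 of these through IR12 alone, and 0 lower, beside 6.56% and 6.12% of all genes. Their summed FPKM was 26.5 in CTRL and 161 in IR12, with Lyz2 the most abundant at 9.73 and 76.9. The microglia markers of this list did not share a direction, with Aif1 at 5.42 and 7.36, Csf1r at 3.61 and 3.71, Cx3cr1 at 1.16 and 0.676, P2ry12 at 1.67 and 0.650 and Tmem119, under the filter, at 0.231 and 0.0967. None of these 5 was past 2-fold, and they were named after their values were seen. T and B lymphocyte markers, the cells in which Batf is best known, were all under FPKM 1 in both libraries, with a sum over 9 genes of 0.769 and 1.004 and Cd79a at 0 in both. All 8 Müller glia markers were at least 2-fold lower in IR12, beside 6.12% of all genes, with sums of 1518 and 340 and Glul the most abundant at 754 and 126. All 9 lens markers were also lower, with sums of 1823 and 230 and Cryaa the most abundant at 1118 and 124. Lens lies outside the retina, and how much lens tissue each sample held is not stated in the sources used here. In the Müller glia list and in the lens list 1 gene each passed in CTRL alone, so that its direction follows from the filter. On the TPM scale 6 of 8 Müller glia and 6 of 9 lens genes were lower by 2-fold, beside 3.23% of all genes, and each gene of both lists was still below its CTRL value. On that scale 10 of 18 leukocyte genes were higher, beside 20.96% of all genes. The part of these cell types in the AP-1 values was not tested. In bulk RNA, fewer cells of a type and less RNA per cell cannot be told apart.

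Among the remaining marker lists, summed FPKM in CTRL and IR12 was 415 and 279 for cones (Gnat2 the most abundant), 397 and 309 for retinal ganglion cells (Nefl) and 537 and 412 for bipolar cells (Trpm1). It was 32.4 and 34.2 for pigment epithelium (Rgr), 28.4 and 52.7 for blood (Hbb) and 115 and 73.5 for endothelium (Kdr). On the TPM scale 3 of 6 cone, 3 of 9 ganglion cell and 2 of 6 bipolar cell genes were below their CTRL values. The lower sums of cones, ganglion cells and bipolar cells thus depend on the scale. At least 2-fold lower in IR12 were 1 of 10 rod genes (Pdc), 1 of 6 cone genes (Opn1sw), 1 of 8 ganglion cell genes (Pou4f2) and 1 of 5 pigment epithelium genes (Rpe65) that passed the filter, beside 6.12% of all genes. At least 2-fold higher was 1 of 2 blood genes (Hba-a2), beside 6.56% of all genes, and 0 of the 6 bipolar cell and 4 endothelial genes passed the limit. These 5 genes were named after their values were seen, Pecam1 was not analysed here, and the part of these lists in the AP-1 values was not tested either. None of the 4 named as lower passed 2-fold in that direction on the TPM scale. There 1 of 7 pigment epithelium and 2 of 5 blood genes were at least 2-fold higher, beside 20.96% of all genes.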

How the data were processed

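Libraries were sequenced as single-end reads after rRNA removal, and the study shortened reads before analysis. The authors deposited FPKM per gene, 1 column per library. The submitters' processing notes name STAR 2.5.2b, Cuffdiff 2.2.0 and build rn6, without options, and the strand setting is not given in the sources used here. Starts listed from 0 were raised by 1. From FPKM, log2 ratios with a pseudocount of 1 were computed for genes whose FPKM reached 1 in either library, with no test, since each group has 1 library. The members and lists were chosen with earlier results of these data known. By rule, named genes are the members, up to 4 genes per list with the largest log2 ratios, all Srf and ternary complex factors, Gapdh, the most abundant markers and those at 0, and the 3 genes nearest to Fosl1 and to Atf3. Others were named after their values were seen, for their position (Jdp2, Batf3) or, without values, to describe a list. The value of 1 marker gene is not reported here. Recovered reads carry 95% exact Poisson and binomial intervals. Promoters are from RefSeq (GRCr8), and protein sequences were not used here. Alternatives were a pseudocount of 0.1, the TPM scale, centring, an FPKM minimum of 5 and no minimum. The procedures were tested on simulated data. Values were computed with pandas 2.3.3 and numpy 2.4.6, intervals with scipy 1.17.1 and plots with matplotlib 3.10.9, under Python 3.11.15.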

Additional observations from a re-analysis of the deposited data

How the results depend on the processing

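The count of AP-1 genes at least 2-fold higher stayed within 1.5 times of 5, and 0 were lower, under each alternative tried. Their median log2 ratio of 1.11 over all 10 was 1.68 on the TPM scale. It was 2.45 with an FPKM minimum of 5, where it was taken over the 7 members that passed, the same 7 as with a minimum of 1. On the TPM scale 2828 of all genes (20.96%) were higher and 436 (3.23%) lower, in place of 892 and 832. With the same sum over loci of at least 500 bases, chosen after seeing the data, 1648 were higher. On the TPM scale the higher genes were 8 of the related basic leucine zipper factors, 8 of the kinase cascade genes, 3 of Srf and ternary complex factors and 8 brakes, and the 1 lower gene of the related factors, of the brakes and of the other immediate early genes was no longer lower by 2-fold. With an FPKM minimum of 5, where fewer genes are tested, 3 of the kinase cascade genes, 0 of Srf and ternary complex factors and 3 other immediate early genes were higher, and 0 of the related factors were lower. The ratio of summed AP-1 FPKM, 7.44, was 11.7 on the TPM scale and 4.24 without Atf3. The log2 ratio of Jund reversed to 0.40 on the TPM scale and to 0.16 with the sum over longer loci, and the cause was not tested. With a pseudocount of 0.1 the log2 ratios of Fosl1, Maff and Batf were 8.39, 3.63 and 1.54. Fosl1 and Batf were listed at 0 in CTRL. Without Atf3, a choice made after seeing the data, the Fos family was 56.0%, the Jun family 36.7%, Maff 7.17% and Batf 0.191% of the AP-1 FPKM in IR12. No paired analysis was possible because each group has 1 library. For Fos, Atf3, Fosl1, Maff, Fosb, Fosl2 and Batf the reads behind FPKM are unknown, so no interval is given.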
